A study of Mus musculus with 2 samples.

Results

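The proteasome genes described here were 50 of the 31053 genes in the deposited single-cell tables, chosen by symbol: every gene whose name starts with Psm, one letter from a to g, and a digit. They cover the 7 subunits of the alpha ring, 4 non-catalytic beta subunits, 3 constitutive catalytic subunits (Psmb5, Psmb6, Psmb7), 3 inducible catalytic subunits (Psmb8, Psmb9, Psmb10), 9 base and 8 lid subunits of the regulatory particle, 4 activators, the inhibitor Psmf1, 7 assembly chaperones and 2 core subunits of restricted tissues (Psma8, Psmb11). Psmc3ip, a recombination factor, and Psme2b, a near copy of Psme2 whose reads may be divided between the 2 genes, carry such names. They are included in the counts of members unless a count is given without them.

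The study sorted CD27+CD11b+ natural killer (NK) cells from the spleens of C57BL/6 mice by flow cytometry and sequenced them in droplets with a 3′ kit. The control library came from EP3F/F mice, in which the gene Ptger3, which encodes the prostaglandin E2 receptor EP3, carries sites for deletion. The knockout library came from NKp46CreEP3F/F mice, in which Cre driven by the NKp46 gene (Ncr1) removes it in cells that express NKp46, such as NK cells and some other innate lymphoid cells; both genotypes carry the floxed allele. Each library pooled 2 mice and there was 1 library per genotype, so no comparison has a replicate check and no test was made. All intervals below are 95% intervals of counting error only and leave out the variation between mice and between libraries.

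The proteasome is a barrel of stacked rings that degrades proteins tagged with ubiquitin. Its catalytic sites lie on beta subunits inside the barrel, and the regulatory particle of base and lid recognises, unfolds and feeds in the tagged protein. In immune cells and after interferon, Psmb9, Psmb10 and Psmb8 take the places of Psmb6, Psmb7 and Psmb5 to form the immunoproteasome, which favours peptides that fit MHC class I. PA28, built from Psme1 and Psme2, caps the barrel in place of the regulatory particle and is also induced by interferon.

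The inducible genes and the constitutive partners Psmb5 and Psmb6 are shown first by the sequence before their transcription starts, because the main contrast below is between these groups of genes. RefSeq windows of 250 bases before the start, in build GRCm38.p6, were matched to 42 of the 50 members. The submitters' processing notes name GRCm39, so these coordinates were used for sequence only. The windows were searched on both strands for the core of the interferon-stimulated response element (2 copies of GAAA with 2 bases between them), the gamma-interferon activated site (TTCNNNGAA), the antioxidant response element (TGACNNNGC) and CCAAT. No searched motif overlapped another in the windows shown. Capitals mark the matches, each line reads 5′ to 3′ on the gene's own strand, and N stands for any base. The whole windows of Psmb8 and Psmb9 lie within annotated exons of GENCODE M21 (of Psmb8, and of Psmb9 and Tap1), so a match with at most 10 bases on each side is shown for these; for the other genes the stretch outside annotated exons is shown.
Psmb8, chr17:34198088-34198116, plus strand: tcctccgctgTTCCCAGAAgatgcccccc
Psmb9, chr17:34187331-34187348, minus strand: gcagccgctgATTGGaaa
Psmb10, chr8:105938445-105938642, minus strand: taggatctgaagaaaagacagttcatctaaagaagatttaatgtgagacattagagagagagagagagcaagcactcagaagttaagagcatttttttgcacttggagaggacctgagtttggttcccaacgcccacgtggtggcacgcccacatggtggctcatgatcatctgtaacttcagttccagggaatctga
Psmb5, chr14:54618023-54618245, minus strand: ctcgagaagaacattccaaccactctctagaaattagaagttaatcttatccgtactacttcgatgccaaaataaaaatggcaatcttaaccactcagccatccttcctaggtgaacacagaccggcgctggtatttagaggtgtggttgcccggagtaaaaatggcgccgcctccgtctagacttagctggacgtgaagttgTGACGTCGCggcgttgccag
Psmb6, chr11:70525107-70525356, plus strand: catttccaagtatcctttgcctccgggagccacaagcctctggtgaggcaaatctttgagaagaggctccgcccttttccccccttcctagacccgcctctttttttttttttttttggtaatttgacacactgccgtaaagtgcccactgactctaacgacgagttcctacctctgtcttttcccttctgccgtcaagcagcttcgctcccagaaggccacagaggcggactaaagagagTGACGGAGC

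The antioxidant motif, the kind of site bound by the factor Nfe2l1 that is known to drive proteasome genes, stood 47 to 39 bases before the start of Psmb5 and 9 to 1 bases before that of Psmb6. It was found in 5 of the 42 matched members (also Psmc6, Psmd12 and Psmd9) and in 10.2% of all 32851 windows. The gamma-interferon motif stood 97 to 89 bases before the start of Psmb8 and was found in 1 other member, Psmg1, and in 7.02% of all windows. The interferon-stimulated core was found in Psmb3, Psmd4 and Psmd9 and in 2.98% of all windows. CCAAT was found in 15 members, Psmb9 among them (on the other strand, 8 to 4 bases before the start), and in 33.8% of all windows. These are matches of letters within one window per start site.

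Cells were grouped by the UMIs (unique molecular counts) of marker genes, none of which is a member. NK-like cells, with UMIs of at least 3 of 8 NK markers and no other class present, numbered 10397 in the control library and 9105 in the knockout library. The libraries differed in depth, with a median of 5826 UMIs per NK-like cell in the control library and 3826 in the knockout. The libraries shared 33 cell barcodes. Ptger3 had 13 UMIs in control and 0 in knockout NK-like cells, where 3 counts, the limit that a count of 0 allows, would be 0.0783 counts per 1000000 UMIs (CPM); its control level was 0.197 CPM. Ncr1, the NK marker that drives Cre, was at 789 CPM in control and 816 CPM in knockout NK-like cells.

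In NK-like cells most proteasome genes were at similar levels in both genotypes, and the members together took 0.558% of UMIs in the control library and 0.581% in the knockout. A gene counted as measured at a mean of at least 10 CPM over the groups compared and as higher or lower when its log2 ratio reached 0.32 in size, which is 1.25-fold. Of the 50 members 47 were measured; Psmb11 had 0 UMIs, Psma8 had 2, and Psmc3ip fell short. Of the 47, 1 was higher in the knockout, against 14.9% of all 7335 measured genes, and 1 was lower, against 29.2% of all. Members had a median log2 ratio of 0.09 and all measured genes one of -0.07.

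The gene that was lower was Psme4, which encodes the activator PA200: its level was 40.0 CPM in control and 23.2 CPM in knockout NK-like cells, a log2 ratio of -0.78 (-0.90 to -0.67). Psme4 was lower in the knockout library in each tertile of a maturation score, described below, as well, with log2 ratios of -0.93, -0.75 and -0.70 from the most to the least mature tertile, and in activated cells (-0.59, -1.08 to -0.13). Psmd9, a chaperone of base assembly, was the gene that was higher, at 33.5 CPM in control and 47.0 CPM in knockout cells (0.49, 0.40 to 0.58), and its ratio lay between 0.44 and 0.51 in the 3 tertiles. Next in rank above were Psmd3 of the lid (0.30), Psma6 of the alpha ring (0.29) and Psmb2 of the beta ring (0.27), and next below Psmd1 of the base (-0.31), Psme2 (-0.30) and Psme3, the subunit of the nuclear activator PA28 gamma (-0.30). All of these lie short of the size used to count a gene.

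By role, the constitutive core (alpha ring, non-catalytic beta and constitutive catalytic genes) summed to 2419 CPM in control and 2661 CPM in knockout NK-like cells, a log2 ratio of 0.14 (0.13 to 0.15). The inducible catalytic genes differed less, from 784 to 808 CPM (0.04, 0.02 to 0.06). Psmb8 was at 436 and 438 CPM and Psmb10 at 186 and 187 CPM in control and knockout, while Psmb9 was at 161 and 183 CPM (0.18, 0.14 to 0.22). Of their partners, Psmb5 was at 152 and 150 CPM, Psmb6 at 137 and 157 CPM (0.19) and Psmb7 at 72.9 and 83.4 CPM (0.19). Base and lid genes summed to 1439 and 1475 CPM (0.04, 0.02 to 0.05).

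PA28 stood on the other side of the control level. Psme1 was at 418 CPM in control and 369 CPM in knockout NK-like cells and Psme2 at 172 and 140 CPM, a log2 ratio of -0.21 (-0.24 to -0.19) for their sum. The sum was lower in the knockout library in all 3 maturation tertiles (-0.18, -0.20 and -0.26 from the most to the least mature) and in activated cells (-0.13, -0.23 to -0.03). In interferon-high cells its ratio was 0.15 (-0.04 to 0.33) and in dividing cells -0.18 (-0.43 to 0.07), both with intervals that include 0. The 12 interferon markers were lower as well: in NK-like cells of no gated state they summed to 55.7 CPM in control and 40.1 CPM in knockout. The 7 activation markers were at 673 and 358 CPM. The part of these in the PA28 values was not tested.

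NK-like cells of at least 2000 UMIs were also thinned to 2000 UMIs each, and shallower cells were left out. Of the members 4 were then higher (Psmb2, Psmd9, Psmd8, Psmg1), against 15.5% of all measured genes. Another 4 were lower (Psmd1, Psme2, Psme3, Psme4), against 29.5% of all, with Psme2 at -0.32 and Psme1 at -0.15. Median-of-ratios scaling gave 5 higher, against 19.8% of all, and 1 lower, against 24.5%. With the median ratio of the 300 genes nearest in exon length subtracted, 3 members were higher (Psmf1, Psmd9, Psmd3; 15.5% of all) and 7 lower (Psmd6, Psme1, Psme2, Psme3, Psme4, Psmc1, Psmg2; 18.7% of all), and the members' median turned from 0.09 to -0.02. Psme4 then stood at -0.46 and Psmd9 at 0.77, and all 4 activators were among the lower genes, Psme1 at -0.36, Psme2 at -0.52 and Psme3 at -0.39. Psme4 and Psmd9 kept their direction and call in these 3 alternatives, and the other calls differed among them.

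Of the other genes of the pathway, 22 of the 24 listed assembly and ubiquitin-binding genes were found, and 3 were higher and 8 lower in the knockout library, where 14.9% of all measured genes were higher and 29.2% lower. Ubqln1, a shuttle for tagged proteins, was at 42.7 and 23.4 CPM (-0.87). Of 16 genes of antigen loading, 1 was higher (H2-T23, 0.39) and 5 were lower, with Nlrc5, the inducer of MHC class I genes, at -0.87; the lower counts of both lists are near the share of all genes. Psmc3ip was at 3.52 CPM in control and 13.02 CPM in knockout NK-like cells, a log2 ratio of 1.89 (1.66 to 2.12), and its ratio was between 1.85 and 1.98 in the 3 tertiles. It is named because of this value, lies below the level used to count a gene, and is no proteasome subunit.

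**Figure D1:**
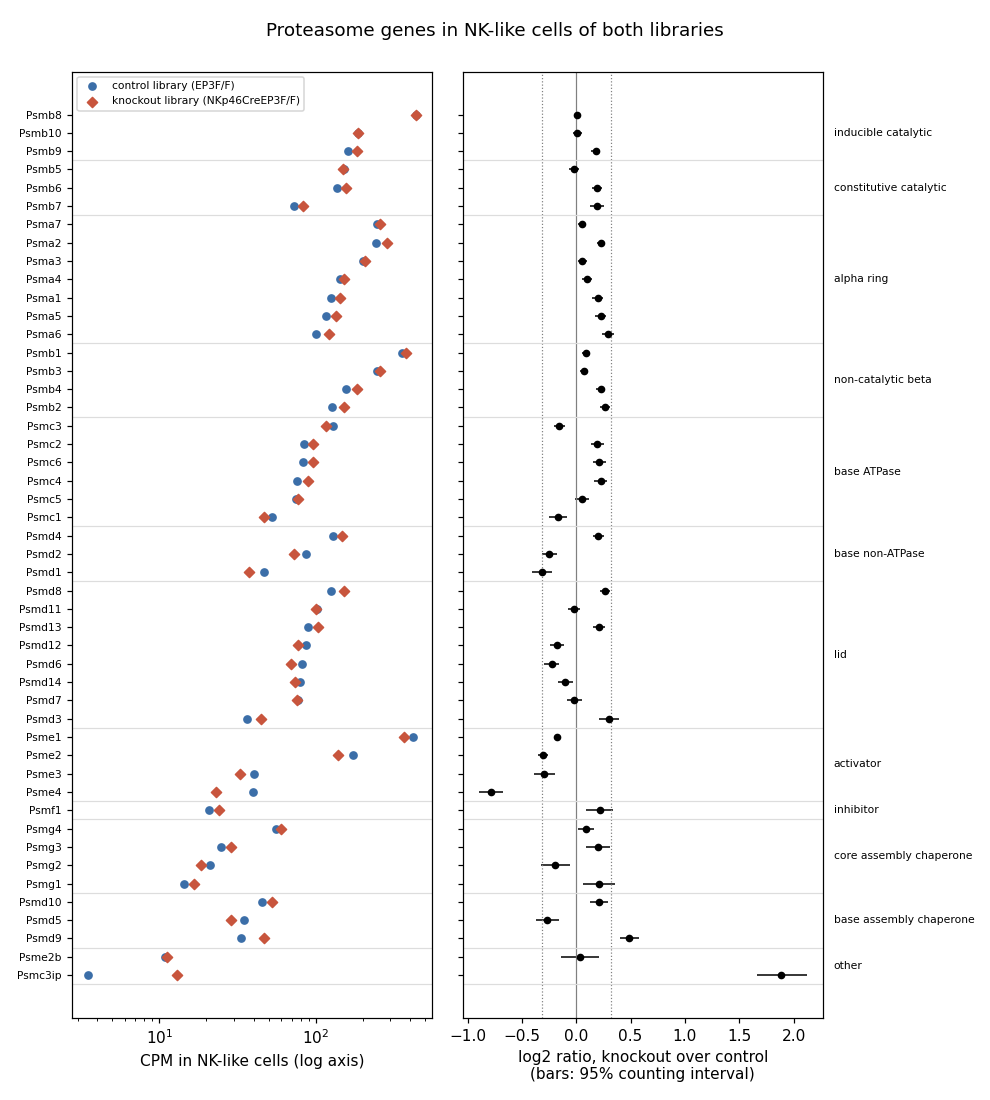
Levels of the proteasome genes in NK-like cells (left, CPM on a log axis, 1 point per library) and the log2 ratio of knockout over control (right, bars are 95% counting intervals), ordered by role; dotted lines mark 0.32 in size. Psmb11 and Psma8 are not drawn; most ratios lie between the dotted lines, with Psme4 at -0.78, Psmd9 at 0.49 and Psmc3ip at 1.89 outside them.

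In interferon-high cells the inducible catalytic genes and PA28 were higher and the constitutive genes were close to their level in other NK-like cells. These cells had UMIs of at least 4 of 12 interferon markers (such as Ifit1, Isg15 and Mx1) and numbered 92 in the control library and 61 in the knockout library. They were set against the NK-like cells of the same library in no gated state (9711 and 8590 cells), which are also the reference for activated and dividing cells, so these 3 comparisons share it. A gene counted here and in all comparisons below when both libraries passed 0.32 in the same direction. Of 47 measured members 6 were higher, against 7.77% of all 7258 measured genes, and 0 were lower, against 10.5% of all. The 6 were Psmb8, Psmb9, Psmb10, Psme1, Psme2 and the copy Psme2b, without which 5 of 46 were higher. The subunit genes among them are known interferon targets, as are the markers that set the gate.

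Psmb10 (ENSMUSG00000031897) was at 344 CPM in interferon-high and 184 CPM in reference cells of the control library, and at 405 and 185 CPM in the knockout library, log2 ratios of 0.90 (0.72 to 1.08) and 1.13 (0.86 to 1.39). Psmb8 (ENSMUSG00000024338) was at 763 and 432 CPM in the control and 895 and 433 CPM in the knockout library (0.82, 0.70 to 0.94, and 1.05, 0.87 to 1.22). Psmb9 (ENSMUSG00000096727) was at 265 and 158 CPM and at 317 and 181 CPM (0.75, 0.53 to 0.95, and 0.81, 0.51 to 1.10). The 3 genes lie on chromosome 8 (Psmb10) and chromosome 17 (Psmb8 and Psmb9, within the MHC), and in each the interferon-high cells of both libraries were above both reference groups.

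Psme2 had the highest ratios of the subunit genes, at 345 and 167 CPM in the control and 350 and 135 CPM in the knockout library (1.05, 0.86 to 1.23, and 1.37, 1.08 to 1.65). Psme1 was at 666 and 412 CPM and at 771 and 363 CPM (0.69, 0.56 to 0.82, and 1.09, 0.90 to 1.27). Psme2b was at 40.8 and 10.7 CPM and at 32.7 and 11.3 CPM (1.93 and 1.53), from 30 and 10 UMIs, and its reads may come in part from Psme2. The PA28 sum had ratios of 0.81 (0.70 to 0.91) in the control and 1.17 (1.01 to 1.32) in the knockout library; with 1 library per genotype these do not show a difference between genotypes. Interferon markers in these cells summed to 1715 CPM in the control and 3414 CPM in the knockout library.

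The constitutive core was nearly level. Its sum had log2 ratios of 0.13 (0.06 to 0.19) and 0.15 (0.05 to 0.24), against 0.83 (0.73 to 0.92) and 1.02 (0.89 to 1.15) for the inducible catalytic genes. The partners Psmb5 (-0.13 and 0.17), Psmb6 (-0.05 and 0.27) and Psmb7 (0.08 and 0.05) all had intervals that include 0, and base and lid genes summed to ratios of 0.01 (-0.07 to 0.10) and 0.14 (0.01 to 0.26). The remaining activators were not counted: Psme3 was at 0.11 and 0.50 and Psme4 at 0.08 and -0.50. At the low end stood Psmd9 (-0.31 and -0.53), Psma1 (-0.04 and -0.58), Psmg1, a chaperone of core assembly (-0.23 and -0.34), and Psmc2, an ATPase of the base (-0.10 and -0.43), none of which passed the size in both libraries.

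Of the 16 genes of antigen loading 9 were higher in both libraries, against 7.77% of all measured genes. Among them were Nlrc5, Tapbp, Tap1, H2-T23, Irf1, Tap2, B2m and Tapbpl. Tap1, the peptide transporter gene that lies head to head with Psmb9, was at 169 and 83.5 CPM in the control (1.01) and 219 and 70.9 CPM in the knockout library (1.63). Nlrc5 had ratios of 1.23 and 1.70, and Tapbp of 1.24 and 1.60. Of 22 assembly and ubiquitin-binding genes 1 was higher, AI314180 (0.35 and 0.33), against the same 7.77% of all. Pomp, the maturation factor of the core, was at 0.19 and 0.27.

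Interferon-high and activated states overlapped, with 21 control and 26 knockout cells in both, and 1 control cell was both interferon-high and dividing. Activation markers summed to 2116 and 2245 CPM in interferon-high cells, against 673 and 358 CPM in the reference cells, and ILC1 markers to 154 and 150 CPM, against 55.4 and 112 CPM. Without the cells of both states the same 6 members were higher and 0 lower. Near the gate, 94 control and 24 knockout cells had exactly 3 interferon markers, and 32 and 18 had exactly 4. Marker lists of other cell types were low in these cells: of 10 macrophage markers 8 were at 0 in each library, of 8 dendritic markers 7 and 8, and the B cell list, which gave 160 and 88.2 CPM, gave 114 and 88.2 CPM in the reference cells. The share of cells with a UMI, at 2000 UMIs per cell, was for Psmb10 51.1% (40.4 to 61.7) in 92 control and 69.5% (56.1 to 80.8) in 59 knockout interferon-high cells, against 30.7% and 31.1% in the reference cells; without thinning the 4 shares were 85.9%, 85.2%, 65.8% and 52.1%. In macrophage-like cells, described below, Psmb10 was present as well, so no class here lacks the gene and gives its background.

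**Figure D2:**
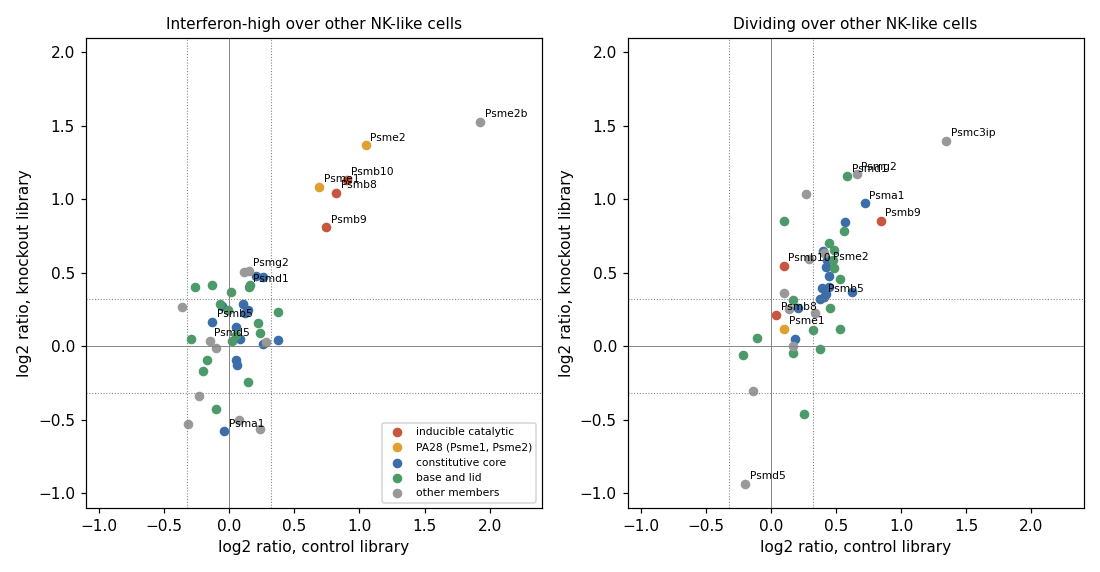
Log2 ratio of each measured member in the control (x) and knockout (y) library, for interferon-high (left) and dividing cells (right) over NK-like cells of no gated state; dotted lines mark 0.32 in size. On the left the inducible catalytic genes and PA28 stand apart at 0.69 or more in both libraries, and on the right 11 of 14 constitutive core genes and 7 of 17 base and lid genes are past the lines in both libraries.

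Dividing cells showed another pattern, in which genes of the constitutive core were higher. Base and lid genes were as well, but most of their calls, and some core calls, were lost without the deepest cells. These cells, with UMIs of at least 4 of 12 G2/M markers such as Mki67 and Top2a, numbered 98 in the control library and 26 in the knockout library. Of 47 measured members 23 were higher in both libraries, against 13.6% of all 7358 measured genes, and 0 were lower, against 18.8%. The 23 include Psmc3ip, which passed the minimum only through dividing cells; without it 22 of 46 were higher. The members' median log2 ratios were 0.40 (control) and 0.39 (knockout), and those of all measured genes -0.09 and -0.13. Depth differed too: the median dividing cell had 10825.5 UMIs in the control library and 10935 in the knockout library, against 5771 and 3817.5 in the reference cells. Cells were not thinned for this comparison, so the part of depth was not tested beyond leaving out the deepest cells, as below.

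The constitutive core summed to 3166 CPM in dividing and 2392 CPM in reference cells of the control library (0.40, 0.36 to 0.45), and to 3593 and 2644 CPM in the knockout library (0.44, 0.35 to 0.53). Of its 14 genes 11 were higher. Psma1 of the alpha ring was at 202 and 123 CPM in the control and 278 and 141 CPM in the knockout library (0.72, 0.53 to 0.91, and 0.97, 0.62 to 1.30). All 3 constitutive catalytic genes were among the 11: Psmb6 at 0.57 and 0.85, Psmb7 at 0.43 and 0.59, and Psmb5 at 0.41 and 0.34.

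Base and lid genes summed to ratios of 0.33 (0.27 to 0.39) and 0.40 (0.27 to 0.53), and 7 of 17 were higher. Psmd1, a scaffold of the base, was at 70.1 and 46.6 CPM in the control and 82.5 and 37.0 CPM in the knockout library (0.59 and 1.16), the latter from 22 UMIs. Psmg2, a chaperone that helps to build the alpha ring, had 0.66 and 1.17, the latter from 11 UMIs. Psmf1 had 0.41 (-0.14 to 0.92) and 0.63 (-0.43 to 1.52), from 32 and 10 UMIs. The counted genes Psmb2, Psmb5, Psmd3, Psmd13 and Psma4 also had intervals that include 0 in the knockout library. Psmc3ip was at 8.65 and 3.40 CPM in the control and 33.8 and 12.8 CPM in the knockout library (1.34 and 1.40), from 10 and 9 UMIs.

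The inducible genes did not move as one group here. Psmb9 was at 284 and 158 CPM in the control and 326 and 181 CPM in the knockout library (0.84 and 0.85, with lower bounds of 0.68 and 0.53). Psmb8, at 0.04 (-0.09 to 0.17) and 0.21 (-0.04 to 0.46), and Psmb10, at 0.10 (-0.10 to 0.29) and 0.55 (0.19 to 0.88), were not counted. Psme2 was counted (0.45 and 0.55) and Psme1 was not (0.10 and 0.12). The lowest members were Psmd5, a chaperone of base assembly (-0.20 and -0.93), Psme4 (-0.14 and -0.30), Psmd4, a ubiquitin receptor of the base (-0.22 and -0.06), and Psmc1, a base ATPase (0.26 and -0.46). Of the antigen loading genes 0 of 16 were higher and 0 lower, where 13.6% of all measured genes were higher and 18.8% lower. Of the assembly and binding genes 2 of 22 were higher, against the same 13.6%: Uchl5 and Txnl1, both bound to the regulatory particle.

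Near this gate, 28 control and 11 knockout cells had exactly 3 G2/M markers and 30 and 5 had exactly 4. Without the 5% of cells with most UMIs in each library, 16 members were higher, against 12.2% of all, and 0 were lower. In the constitutive core 9 of 14 genes were then higher, but these include Psma7 and Psmb1, which had not been counted before. Base and lid genes had only 3 of 17 higher (Psmc4, Psmd8 and Psmd13), near the share of all genes. Psmd1, Psmd3, Psmd14, Psmc3, Psma2, Psmb2, Psmb5, Psmb6, Psmg2 and Psmc3ip were no longer counted, and Psma7, Psmb1 and Psmb10 were added. Psma1 and Psmb9 were higher in both settings. Dividing cells were deeper than the reference cells, so leaving out the deepest cells falls more on them. The number of dividing cells left is not given here, and the part of lost counts was not tested. Psmd1, Psmd14 and Psmc3 were higher with median-of-ratios scaling and without mitochondrial and ribosomal protein UMIs. They also were with at least 3 or 6 G2/M markers, but at a size of 0.58 only Psmd1 was.

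Activated cells, the 5% of NK-like cells with the highest summed share of 7 genes such as Ifng, Xcl1 and Ccl3, differed little from the reference. Of 47 members 1 was higher, against 3.93% of all measured genes, and 0 were lower, against 3.24%. This was Psme2, at 224 and 167 CPM in the 520 control cells and 193 and 135 CPM in the 456 knockout cells (0.42, 0.32 to 0.53, and 0.51, 0.35 to 0.66). Psme1 had smaller ratios of 0.22 and 0.31. The inducible genes Psmb8 (0.14 and 0.14), Psmb9 (0.09 and 0.12) and Psmb10 (0.18 and 0.17) had small positive ratios, as did their partners Psmb5 (0.16 and 0.11), Psmb6 (0.18 and 0.32) and Psmb7 (0.16 and 0.30). Psma4 (0.27 and 0.32) and the base ATPase Psmc4 (0.14 and 0.41) were next to Psme2 by mean ratio, and Psme2b (0.24 and -0.86), Psmd9, Psmd10 and Psmd4 came last. Interferon markers moved with this score, at 192 and 377 CPM against 55.7 and 40.1 CPM in the reference cells, and their part in the Psme2 value was not tested. The score that cut off the top 5% was 27.96 UMIs per 10000 in the control library and 15.5 in the knockout library, so the same share of cells spans different levels.

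Members differed little across the maturation score. The cells had been sorted as CD27+CD11b+, so the score spans what varied within that sort and not NK maturation as a whole. NK-like cells of no gated state were ranked by mature markers (such as Itgam, Klrg1 and S1pr5) against immature ones (such as Cd27, Ltb and Kit), and the most mature tertile was set against the least mature one. Of 47 members 0 were higher, against 2.41% of all, and 0 lower, against 2.29%. The inducible catalytic genes summed to 744 CPM in the most and 800 CPM in the least mature tertile of the control library, and to 761 and 818 CPM in the knockout library, ratios of -0.10 (-0.14 to -0.07) and -0.10 (-0.15 to -0.06). Psmb8 was at -0.10 and -0.09, Psmb9 at -0.13 and -0.13 and Psmb10 at -0.10 and -0.13, each with an interval below 0 in both libraries, while Psmb5 (-0.00 and 0.04), Psmb6 (0.08 and 0.09) and Psmb7 (-0.03 and 0.02) were near 0. PA28 genes were at -0.10 and -0.02 (Psme1) and -0.12 and -0.06 (Psme2). The highest were Psmd11 of the lid (0.16 and 0.16), Psmg3, Psmd2 and Psmc5, and the lowest Psmg2 (-0.27 and -0.32), Psme2b, Psmd5 and Psmb9. The tertiles are ranges of a score, with 614 and 707 control cells within 0.05 of the lower and upper cut and 545 knockout cells at each.

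**Figure D3:**
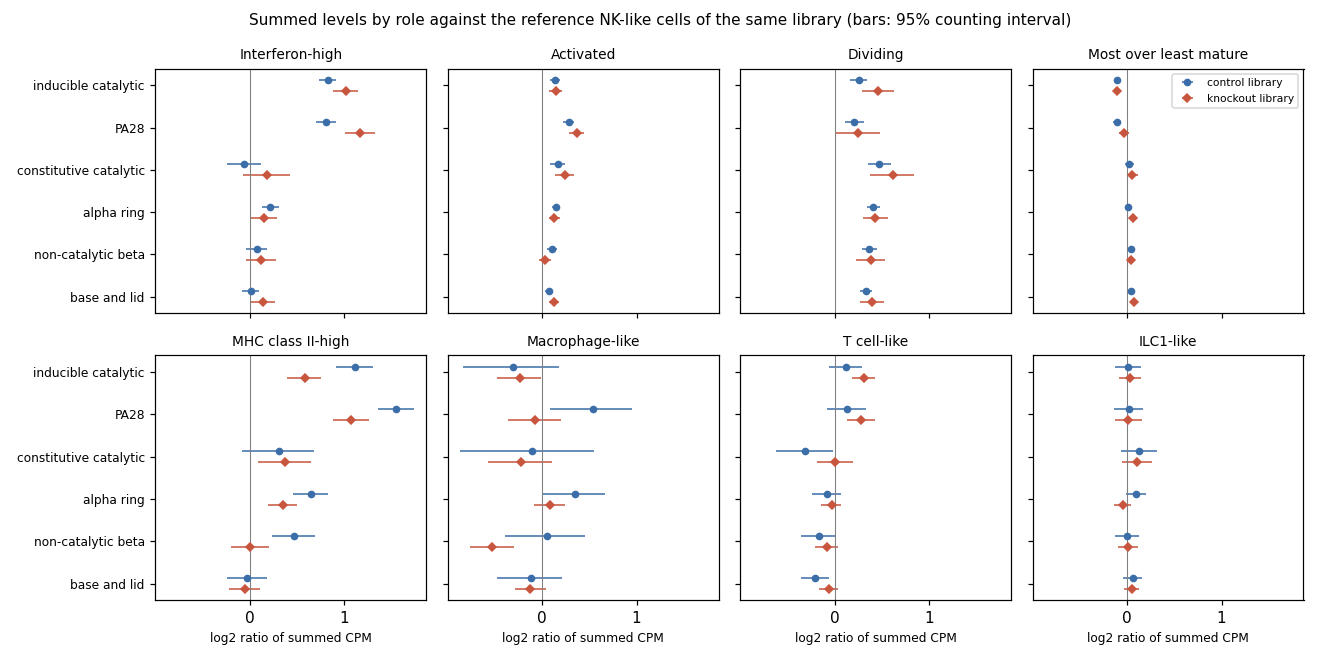
Log2 ratio of summed levels by role for 8 comparisons within each library (circles control, diamonds knockout; bars are 95% counting intervals). States and the most mature tertile are set against the NK-like groups named in the text, other classes against all NK-like cells; the inducible genes and PA28 are at 0.81 to 1.17 in interferon-high cells, and the wide bars of macrophage-like cells reflect 53664 and 227358 UMIs in all.

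The other classes were small and came from a sort for NK cells, so their share says nothing of the spleen. Cells with at least 10 UMIs over 4 MHC class II genes and at most 1 UMI over the NK markers numbered 68 in the control library and 94 in the knockout library, with 1670 and 1923.5 UMIs in the median cell. The members took 0.870% and 0.716% of their UMIs, above the 0.558% and 0.581% of NK-like cells. Of 47 members 12 were higher in both libraries than in NK-like cells, against 15.1% of all measured genes, and 3 lower (Psmd7, Psme4 and Psmg2), against 45.5% of all. The 12 include Psmc3ip, which passed the minimum only through this class; without it 11 of 46 were higher. Psmb9 was at 580 and 161 CPM in the control and 477 and 183 CPM in the knockout library (1.85, and 1.39 with an interval of 1.09 to 1.67). Psme2 had 1.75 and 1.36, Psme1 1.45 and 0.95, and Psmb8 1.06 and 0.43, while Psmb10 was at 0.15 (-0.46 to 0.69) and -0.40 (-0.97 to 0.11). Psmb8 missed the size with the limit on NK markers lifted (0.51 and 0.319), and with the stricter cell filter (at least 1000 genes and at most 5% mitochondrial UMIs) Psmb10 was lower in both libraries (-0.67 and -1.27), with intervals that include 0. Of the partners, Psmb7 was higher (0.55, -0.32 to 1.30, from 14 UMIs, and 0.61, 0.01 to 1.16, from 27 UMIs). Psmb6 (0.53 and 0.30) and Psmb5 (-0.07 and 0.30) were not counted.

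The count of this class depends on the scaling. Most measured genes were lower than in NK-like cells, with a median of -0.51 (control) and -0.70 (knockout), and with median-of-ratios scaling 25 members were higher and 1 lower (25.6% and 27.1% of all). Of the 12, 6 were genes of the constitutive core, such as Psma5 (1.28 and 0.48) and Psma7 (0.84 and 0.55), and Psmc3ip (2.70 and 0.86) rested on 3 and 5 UMIs. The lowest members, Psmd5, Psmg2, Psmd1 and Psme4, had 5 UMIs or fewer each in either library. Of 22 assembly and binding genes 5 were higher, against 15.1% of all, and 6 lower, against 45.5% of all. Pomp, which is used up when each new core matures, was among the higher ones (1.18 and 1.28). Of 16 antigen loading genes 0 were higher and 7 lower, near the 45.5% of all genes, with H2-Q7 at -2.43 and -1.87. Dendritic markers summed to 229 CPM with Siglech at 0 in the control and 241 CPM with Ccr9 at 0 in the knockout library, B cell markers to 114 and 260 CPM, and G2/M markers to 466 and 647 CPM. The class carries no cell type name, since markers of several types were present, and their part was not tested.

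Macrophage-like cells, with UMIs of at least 3 of 10 macrophage markers, numbered 35 in the control library and 129 in the knockout library. Of 47 members 6 were higher, against 22.4% of all, and 6 lower, against 20.8%. Psme4 was highest, at 149 and 40.0 CPM in the control and 66.0 and 23.2 CPM in the knockout library (1.90, 0.69 to 2.88, and 1.51, 0.67 to 2.24), from 8 and 15 UMIs. Psmb10 was lower, at 74.5 and 186 CPM in the control and 106 and 187 CPM in the knockout library (-1.32, -3.20 to 0.04, and -0.83, -1.47 to -0.25). Psmb8 (-0.09 and -0.26) and Psmb9 (-0.11 and 0.24) were not counted, nor were Psme1 (0.27 and -0.22) and Psme2 (1.04 and 0.26). Psmb5 was at 0.30 and -0.39, Psmb6 at -1.30 and -0.46 and Psmb7 at 0.35 and 0.34, with at most 26 UMIs each in either library. By mean ratio Psmg1, Psmg4 and Psma5 followed Psme4 at the top, and Psmd9, Psmd14 and Psmd10 stood with Psmb10 at the bottom. Psmg1 differed in direction between libraries (1.95 and -0.34, from 3 UMIs in each). Psmd9 rested on 1 UMI in each library, Psmd14 on 2 and 9 UMIs and Psmd10 on 2 and 4. Both other scalings gave 5 higher and 8 lower (22.5% and 21.7% of all genes with median-of-ratios scaling, 20.3% and 21% without mitochondrial and ribosomal protein UMIs). With the stricter cell filter Psmb10 was no longer counted (-0.72 in the knockout library, with an interval that includes 0) and Psmb5 was the one lower member. With the limit on NK markers lifted, 1 member was higher, Psme4, against 11.6% of all, and 0 were lower, against 3.46%, so Psme4 is the one call that both gates gave.

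T cell-like cells numbered 40 and 101 and carried NK markers as well, at 2313 and 2358 CPM in sum. Of 48 measured members 2 were higher, Psme2 (0.45 and 0.61) and Psmg2 (1.19 and 0.96), against 10.2% of all, and 6 lower, against 21.6% of all: Psmd9, Psmd6, Psme3, Psmc4, Psmd10 and Psmd2. Of these 6 only Psmd9 (-1.80 and -0.78, from 3 and 16 UMIs) had intervals below 0 in both libraries. The interval of Psmd6 included 0 in the knockout library, and those of Psme3, Psmc4, Psmd10 and Psmd2 did in both. Psmb8 was at 0.26 and 0.55, Psmb9 at -0.07 and 0.06, Psmb10 at -0.10 and -0.17, and Psme1 at -0.02 and 0.14. Psmb5 was at 0.05 and 0.04 and Psmb6 at -0.37 and -0.12. Psmb7 differed between libraries, at -1.33 from 9 UMIs and 0.17 from 55 UMIs. Psmc3ip, which passed the minimum only through this class, had 2.19 and 0.24, from 5 and 9 UMIs, and Psmd13 -0.88 and -0.21. With classes present at 2 markers Psme2 was no longer counted (0.066 and 0.52), and Psmg3 and Psmg2 were the 2 higher members. Under median-of-ratios scaling 6 members were higher, Psmc3ip among them, against 14.8% of all, and 1 lower, against 14.6%. The split between higher and lower genes in this class thus turns with the scaling.

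ILC1-like cells, gated on markers of type 1 innate lymphoid cells such as Il7r and Rora and with NK markers at 6291 and 6862 CPM in sum, against 7647 and 8367 CPM in NK-like cells, numbered 71 and 151 and were close to NK-like cells. Of 47 members 0 were higher, against 5.75% of all, and 1 was lower, Psmd9 (-0.41 and -0.42), against 5.33% of all. Its intervals, from 14 and 27 UMIs, include 0 in both libraries (-1.29 to 0.34 and -1.02 to 0.13). Inducible catalytic genes had ratios of 0.01 (-0.13 to 0.15) and 0.03 (-0.08 to 0.15) and PA28 of 0.02 and 0.02. Psmb8 was at 0.02 and 0.18, Psmb9 at -0.10 and -0.15, Psmb10 at 0.10 and -0.16, Psme1 at 0.10 and -0.01, and Psme2 at -0.21 and 0.09. Psmb5 (0.12 and 0.32), Psmb6 (0.20 and -0.02) and Psmb7 (0.01 and -0.07) were not counted either. By mean ratio Psmc4, Psme2b, Psmd8 and Psmb5 stood at the top. Psmf1, Psme3 and Psmg2 stood with Psmd9 at the bottom. Psme2b (-0.28 and 0.81, from 5 and 15 UMIs) and Psme3 (-0.68 and 0.15, from 14 and 28 UMIs) differed in direction between libraries.

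The inducible share of each catalytic pair gives the exchange on one scale per site. It is the percentage of a pair's UMIs that belong to the inducible gene, with an exact binomial interval. Because capture differs between genes, the share is compared between classes and not between pairs, and it counts transcripts and not subunits in assembled proteasomes. In NK-like cells of no gated state Psmb9 made up 53.8% (53.1 to 54.6) of the UMIs of Psmb9 and Psmb6 in the control and 53.9% (53.0 to 54.8) in the knockout library. Psmb8 made up 74.2% (73.7 to 74.6) and 74.5% (73.9 to 75.1) of its pair with Psmb5. Psmb10 made up 71.9% (71.2 to 72.6) and 69.2% (68.3 to 70.1) of its pair with Psmb7, the one pair whose intervals in the libraries did not overlap.

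Interferon-high cells had higher shares at all 3 sites in both libraries. Psmb9 stood at 67.0% (61.3 to 72.4) and 63.0% (54.8 to 70.6), Psmb10 at 81.9% (77.1 to 86.0) and 82.7% (75.6 to 88.4), and Psmb8 at 84.7% (81.8 to 87.4) and 84.3% (79.9 to 88.1). These intervals lay above those of the reference cells in the same library, for Psmb9 in the knockout library by less than the rounding of the bounds, at 54.8%. Dividing cells went the other way for Psmb8 in the control library, at 69.0% (65.6 to 72.4), and were at 72.8% (65.8 to 79.1) in the knockout library. Their Psmb10 share was 67.1% (61.8 to 72.0) and 68.6% (58.8 to 77.3), and their Psmb9 share 58.5% (54.3 to 62.6) and 54.0% (46.0 to 61.9), with intervals that overlap those of the reference.

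Along the maturation score of these sorted cells the Psmb9 share was 52.0%, 53.5% and 55.7% from the most to the least mature control tertile. In the knockout library it was 51.8%, 54.2% and 55.6%. Intervals of the most and least mature tertile did not overlap in either library, while those of neighbouring tertiles did. Psmb8 differed less, from 73.6% to 74.8% in the control and from 73.3% to 75.1% in the knockout library. In MHC class II-high cells the Psmb9 share was 74.5% (64.9 to 82.6) and 71.1% (62.9 to 78.4). Their Psmb8 share was 86.2% (79.3 to 91.5) and 76.2% (69.0 to 82.5), and the knockout interval includes the 74.5% of NK-like cells. Their Psmb10 share was 65.9% (49.4 to 79.9) and 52.6% (39.0 to 66.0), and the control interval includes the 71.9% of NK-like cells. Macrophage-like cells likewise had a low Psmb10 share of 50% (35.2 to 64.8) in the knockout library, below the 69.2% of NK-like cells, and 44.4% from 9 UMIs in the control.

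**Figure D4:**
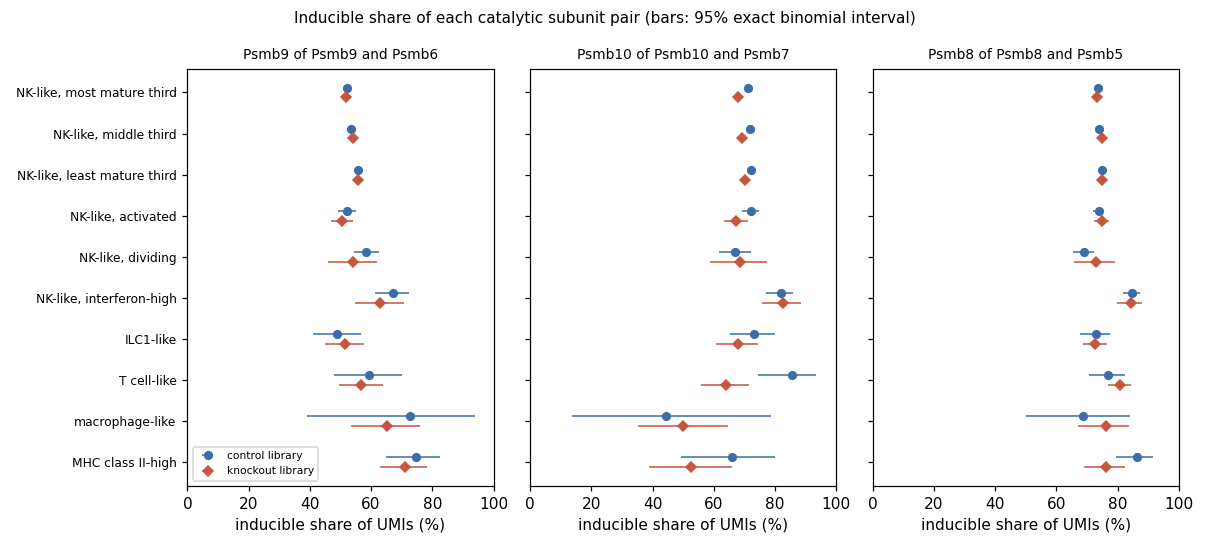
Share of UMIs from the inducible gene of each catalytic pair (x axis, percent) by class (y axis) in the control (circles) and knockout (diamonds) libraries, with 95% exact binomial intervals. Interferon-high cells lie to the right of the NK-like tertiles at all 3 sites, and the Psmb10 share of MHC class II-high cells is 65.9% and 52.6%.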

How the data were processed

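The deposited matrices hold whole-number UMI counts per gene and barcode, made by the authors with Cell Ranger 3.0.0 per the file headers; STAR, Seurat and GRCm39 are named in the submitters' processing notes. The filter on barcodes was 500 or more genes and no more than 10% mitochondrial UMIs (it left 10928 of 11785 control and 10023 of 10615 knockout; 68991150 and 42233016 UMIs). No doublet caller was run; cells with markers of another class were left out of the NK-like gate. A class was present with UMIs of at least 3 of its markers. Counts were summed per class and library and scaled to CPM, with exact binomial intervals of the log2 ratio. No ratio against a count of 0 is printed. Values of some listed genes are not reported here. The members, lists and comparisons were chosen with earlier results of these data known. Genes named in every comparison were the 6 paired catalytic genes, Psme1, Psme2, and the 4 measured members with the highest and the 4 with the lowest mean log2 ratio; others are named for their role or call, and Psmc3ip after its value was seen. Exon lengths came from GENCODE M21 (GRCm38). The scripts were tested on simulated data. Alternatives covered scaling, filters, gates, depth, gene length and the size used; 2 were added after seeing the data (at least 10 UMIs per group, and interferon-high cells in no other state). Python 3.11.15, numpy 2.4.6, scipy 1.17.1 and pandas 2.3.3 were used.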

Additional observations from a re-analysis of the deposited data

How the results depend on the processing

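No paired analysis was possible because each genotype has 1 library, so no replicate was left out either. The libraries differ in depth and genotype at once, so these cannot be told apart. Depth limits single genes in small classes: 13 members of macrophage-like and 29 of MHC class II-high cells had at least 10 UMIs in every group. The cause of the shifts below was not tested.

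In the knockout comparison the number of higher members moved from 1 to 5 with median-of-ratios scaling, 4 without mitochondrial and ribosomal protein UMIs, 2 with no CPM minimum, 2 with the stricter cell filter (at least 1000 genes and at most 5% mitochondrial UMIs), 3 with length adjustment, 4 with thinning, 0 at a size of 0.58 and 2 with at least 10 UMIs per group. The number of lower members moved from 1 to 7 with length adjustment and 4 with thinning. The members' median moved from 0.09 to 0.15, 0.12 and -0.018 with median-of-ratios scaling, without mitochondrial and ribosomal protein UMIs and with length adjustment.

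In interferon-high cells the number of lower members moved from 0 to 1 with the stricter cell filter, 2 without the 5% of cells with most UMIs and 1 with at least 6 interferon markers; the 6 higher members stayed higher in all alternatives but the 25 CPM minimum, where Psme2b was not measured. In the control library the Psmb10 share was 76.8% and the Psmb8 share 80.8% with at least 3 markers, and 87.4% and 87.7% with at least 6; the knockout Psmb8 share was then 89.5%. In activated cells 2 members were higher in the top 2% and 0 at a size of 0.58. In dividing cells 1 member was lower without mitochondrial and ribosomal protein UMIs, with no CPM minimum (1) and with at least 6 G2/M markers (1), and 5 were higher at a size of 0.58. In the maturation comparison 1 was lower without mitochondrial and ribosomal protein UMIs.

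In macrophage-like cells 1 member was lower with the stricter cell filter; 1 was higher and 0 lower with no limit on NK markers; 2 were higher at a size of 0.58; and 1 was higher and 1 lower with at least 10 UMIs. In MHC class II-high cells median-of-ratios scaling gave 25 higher and 1 lower and a knockout median of 0.65; 1 was lower without mitochondrial and ribosomal protein UMIs; 6 were higher and 1 lower both with no limit on NK markers and at a size of 0.58; and 0 were lower with at least 10 UMIs. In T cell-like cells 6 were higher and 1 lower under each of the other scalings, 5 and 2 with the stricter cell filter, 4 higher without the 5% of cells with most UMIs, 3 lower with classes present at 2 markers, and 1 and 1 at a size of 0.58. These 6, 5 and 4 higher members each include Psmc3ip. In ILC1-like cells 1 was higher and 0 lower with classes present at 2 markers, and 0 were lower at a size of 0.58.

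Single genes changed sign in the small classes, where the stricter cell filter leaves out most macrophage-like and MHC class II-high cells. In macrophage-like cells Psmb6 in the knockout library was at 0.40 with the stricter cell filter, and with no limit on NK markers Psmb10 in the control was at 0.033 and Psmb7 at -0.028 and -0.12 in control and knockout. In MHC class II-high cells of the knockout library Psmb10 was at 0.23 with median-of-ratios scaling and Psmb7 at -0.10 with the stricter cell filter.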
